A study of Mus musculus with 127 samples.

Results

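The response of short-term haematopoietic stem cells (ST) in culture with bacterial ligands was compared with that of multipotent progenitors (MPP) sorted from the same young mice. The question was whether a gene moved further from its own 0 h level in ST than in MPP. Members were every ST and MPP library of young mice 1, 2 and 3 in the stimulated course, 42 of 108 libraries after technical repeats were summed. Each mouse gave 1 library per cell type at 0, 0.5, 1, 2, 4, 8 and 12 h. Cells were grown in culture with lipopolysaccharide (LPS, a ligand of the receptor Tlr4) at 100 ng/ml and Pam3csk4 (a lipopeptide bound by Tlr2) at 1 ug/ml. The 0 h libraries of young mice 1 and 2 carry the ligand label and those of mouse 3 the label of no treatment, and all were read as unexposed. No allele, strain or age in weeks is given beyond "young". The mouse number was read as 1 animal, so ST and MPP values with the same number are paired. Long-term stem cell (LT) libraries entered only an alternative fit. A stimulated old mouse (old mouse 2) and unstimulated cultures of young mouse 4 and old mouse 4 served only as outside values. Young mice 1, 2 and 3 had no culture without ligand. Ligand and time in culture therefore cannot be told apart in their changes from 0 h.

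ST and MPP are successive stages below the long-term stem cell: both still give rise to all blood lineages, but with shorter self-renewal. LPS and Pam3csk4 act through Tlr4 and Tlr2 on the adaptor MyD88 and free NF-kB, the transcription factor that switches on inflammatory genes together with its own inhibitors. AP-1 and Egr factors, encoded by immediate early genes, are induced in parallel and fade quickly.

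Libraries held 990801 to 11636725 counts (median 4594825), and between 7788 and 13502 genes had a count. The median number of detected genes went from 12510 at 0 h to 8346 at 12 h in ST and from 13281 to 11483 in MPP. Repeats of 1 condition were not interchangeable: for ST of mouse 1 at 0 h the log2 values of the 2 repeats gave a correlation over genes (no replicates of each other) of 0.759, against 0.953 for MPP of the same mouse. The 3 repeats of ST of mouse 1 at 1 h gave 0.711 to 0.883. Mouse 3 stood apart in both cell types. The headers of the deposited counts give a date but no mouse number. Mice were matched to dates by the repeats and times that the sample titles list. This matching gave each mouse its own date, in April for mice 1 and 2 and in July for mouse 3. Mouse and date therefore cannot be told apart. The summed level of 13 late neutrophil granule genes at 0 h was 70083, 41292 and 330 CPM (counts scaled to a common library size) in ST and 55243, 24695 and 269 CPM in MPP of mice 1, 2 and 3. In bulk RNA, fewer cells of a type and less RNA per cell cannot be told apart.

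The sorted labels were checked against genes that separate the 2 stages. Flt3, the receptor tyrosine kinase that marks MPP, was at 138, 214 and 417 CPM in ST and 321, 412 and 892 CPM in MPP of mice 1, 2 and 3 at 0 h. Procr, an endothelial protein C receptor found on stem cells, was at 29.5, 70.3 and 149 CPM in ST and 15, 17.9 and 23.6 CPM in MPP. In each mouse Flt3 was lower, and Procr was higher, in ST. Cd48, a surface molecule of progenitors, was at 70.9, 55.9 and 2.99 CPM in ST against 93.0, 100.0 and 88.2 CPM in MPP. Cd34 was lower in ST than in MPP in each mouse, at 278, 540 and 851 against 548, 815 and 1296 CPM. Slamf1 (CD150), another stem cell surface marker, had 0 counts in all 3 ST libraries at 0 h and was at 2.59, 0.578 and 0.891 CPM in MPP, so it separated nothing at this depth.

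No gene passed the test for a different response. With full pairing by mouse, edgeR's quasi-likelihood test with Benjamini-Hochberg adjustment called 0 of 13139 genes (0.0%) at 0.5, 1, 2, 4, 8 and 12 h, for the mean over the 6 times, and for a difference at any time. The lowest adjusted p was 0.467 at 0.5 h, 1.0 at 1, 2, 4 and 8 h, 0.104 at 12 h, 0.883 for the mean and 1.0 for any time. At an unadjusted p under 0.05 there were 67, 69, 141, 205, 215 and 774 genes in order of time, 104 for the mean and 215 for any time. These were 0.51%, 0.525%, 1.07%, 1.56%, 1.64% and 5.89% of the genes tested, then 0.792% and 1.64%. All but the 12 h share lay below the 0.05 that such a threshold lets through when no gene differs. Of the 774 at 12 h, 720 changed more toward lower levels in ST. DESeq2 with the same terms called 5, 1, 4, 8, 2 and 315 genes in order of time, 2 for the mean and 73 for any time. limma voom called 0, 2, 3, 0, 0 and 30, then 0 and 17. Counts of 5 or fewer held these genes, some named only after their values were seen. DESeq2 called Ccl3, Cxcl16, Eif3j1, Nfkbiz and Traf3 at 0.5 h, Eif3j1 at 1 h, and Bst1, Chtf18, Eif3j1 and Fgl2 at 2 h. It also called 4921524J17Rik and Eif3j1 at 8 h, and Eif3j1 and Tnf for the mean. Its log2 difference for Eif3j1 was -17.94, -25.51, -26.27, -31.52 and -20.16 at 0.5, 1, 2, 4 and 8 h, and -24.87 for the mean. Values this large are not read here as fold changes. limma voom called Actb and Rpl3 at 1 h and Actb, Eef2 and Srgap1 at 2 h. Since none passed with edgeR, genes are described below as nearest the threshold, which means the lowest unadjusted p in a comparison among genes that averaged 10 CPM or more and kept 1 sign in all 3 mice.

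The precision behind this count was limited. For genes with a mean of at least 100 CPM, the 95% interval of a difference reached a median of 1.05 to 1.07 log2 units to either side over the 6 times. For genes of 10 to 100 CPM it reached 3.68 to 3.97. Even before adjustment, a difference under 2-fold in well expressed genes was therefore mostly not detectable here. In genes of 10 to 100 CPM the same held for differences under 3.68 log2 units. The adjusted threshold asks for larger differences: Nfkbiz at 0.5 h, at 1.87 ± 0.36 log2 units, had an edgeR adjusted p of 0.467. The lack of calls does not exclude differences above these sizes. Intervals given below are not adjusted for the number of genes.

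Each cell type on its own changed strongly, and many rises were shared. In ST, edgeR called 59 genes higher at 0.5 h (0.449% of those tested), 170 at 1 h (1.29%), 233 at 2 h (1.77%), 204 at 4 h (1.55%), 210 at 8 h (1.6%) and 299 at 12 h (2.28%). In MPP it called 48 (0.365%), 108 (0.822%), 207 (1.58%), 231 (1.76%), 227 (1.73%) and 241 (1.83%). Falls were rarer until late. They numbered 0 (0.0%), 5 (0.0381%), 72 (0.548%), 92 (0.7%), 151 (1.15%) and 708 (5.39%) in ST, and 0 (0.0%), 0 (0.0%), 12 (0.0913%), 56 (0.426%), 82 (0.624%) and 96 (0.731%) in MPP. The genes that rose in both cell types numbered 42, 95, 153, 153, 151 and 176 in order of time. They made up 71.2% of the ST rises and 87.5% of the MPP rises at 0.5 h, and 58.9% and 73.0% at 12 h. No gene was called higher in 1 cell type and lower in the other at the same time. Of the falls at 12 h, 78 were shared, 11.0% of those in ST and 81.2% of those in MPP. Of the 80 genes called higher at 2 h in ST alone, 77 had a positive change in MPP, and of the 630 called lower at 12 h in ST alone, 527 had a negative one. A gene called in ST alone is not thereby shown to respond differently. These within-cell-type counts moved with the method: the number of genes called in ST at 1 or more times was 1327, but 268 without mouse 2 and 4259 with DESeq2, and in MPP 551, 75 without mouse 2 and 1246 with DESeq2.

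**Figure D1:**
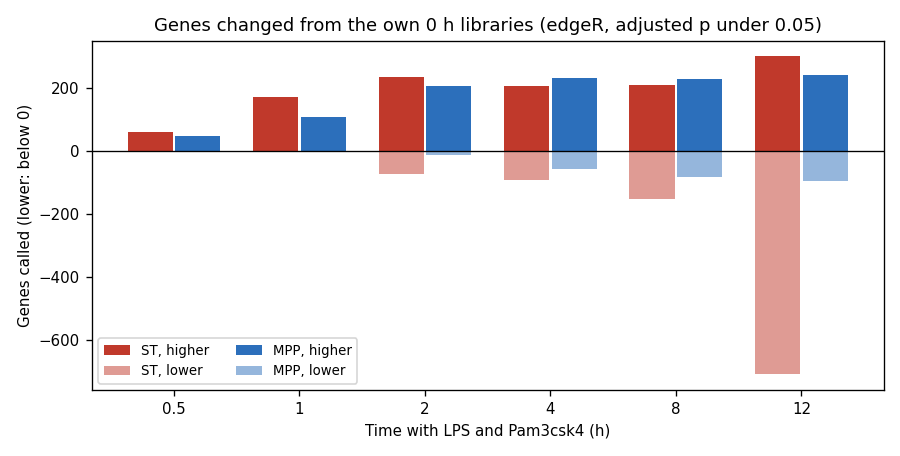
Number of genes called higher (above 0) or lower (below 0, pale) than the own 0 h libraries by edgeR, by hours of culture with both ligands, in ST (red) and MPP (blue). Rises were of like number in both cell types, while at 12 h 708 genes were called lower in ST and 96 in MPP.

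Among the inhibitors and feedback genes of NF-kB some were called higher in both cell types. Of 19 genes listed, 3, 9, 9, 9, 8 and 8 were called higher in ST in order of time, and 4, 7, 10, 7, 9 and 9 in MPP, with 0 of 19 called for a difference. Over all genes tested, 0.449% to 2.28% were called higher in ST and 0.365% to 1.83% in MPP, depending on the time. The median difference of changes over the list, on log2(CPM + 1) averaged over mice, ran from -0.59 at 12 h to 0.38 at 1 h, beside -0.42 and 0.05 over all genes. NF-kB binds a short motif, searched here as GGG, then 3 bases of any kind, then TTCC, on either strand in RefSeq windows from 250 bases before to 50 after each gene's start (assembly GRCm38.p6). The motif was found for 9 of 17 genes of the list with a window (52.9%), and for 1704 of all 27025 genes with one (6.31%). Stretches of 4 inducible genes described below are given to show the motif (capitals, overlapping matches merged). Tnf, Ccl3, Icam1, Fth1, Plk2 and Il1b, also described below, had 0 matches in their windows. The 4 were chosen after their values were seen, are printed 5′ to 3′ on the gene's strand, and a match is a description, not a shown binding site.
Nfkbia, chr12:55492652-55492691, minus strand: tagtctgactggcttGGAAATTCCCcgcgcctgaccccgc
Tnfaip3, chr10:19015361-19015437, minus strand: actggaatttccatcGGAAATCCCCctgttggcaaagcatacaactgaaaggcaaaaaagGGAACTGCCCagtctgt
Cxcl2, chr5:90903787-90903845, plus strand: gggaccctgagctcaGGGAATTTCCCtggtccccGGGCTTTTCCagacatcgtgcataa
Sdc4, chr2:164443246-164443285, minus strand: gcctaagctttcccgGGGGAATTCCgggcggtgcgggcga

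Nfkbia encodes IkB-alpha, which keeps NF-kB out of the nucleus until it is degraded. Its level in ST of mice 1, 2 and 3 went from 157, 72.9 and 97.9 CPM at 0 h to 2047, 2065 and 1644 CPM at 1 h. In MPP it went from 143, 78.7 and 62.8 to 1155, 1477 and 1420 CPM. Every library at 1 h lay above every library at 0 h. The log2 change at 1 h was 4.13 ± 0.32 (SE, edgeR adjusted p = 2.42e-10) in ST and 3.84 ± 0.32 (adjusted p = 1.58e-09) in MPP. Their difference was 0.29 ± 0.32, and per mouse it was 0.69, 0.59 and -0.42, so the mice did not share a sign.

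Nfkbiz encodes IkB-zeta, a nuclear IkB protein needed for a second set of NF-kB targets, and was the gene nearest the threshold on the ST side at 0.5 h. At 0 h it stood at 7.38, 7.01 and 8.55 CPM in ST and 13.2, 18.5 and 10.0 CPM in MPP. At 0.5 h it stood at 1328, 602 and 420 CPM in ST and 346, 356 and 324 CPM in MPP. ST was lower at 0 h and higher at 0.5 h in each mouse, by the widest margin in mouse 1. The paired difference of changes on log2(CPM + 1) was 2.70, 2.04 and 0.58 (mean 1.77 ± 1.08 SD, n = 3 mice). The edgeR difference was 1.87 ± 0.36 (95% interval 1.10 to 2.63) with an adjusted p of 0.467, so it did not pass. DESeq2 gave 1.89 with an adjusted p of 0.0227. It was smaller later, at 1.33 ± 0.36 at 1 h, 1.08 ± 0.36 at 2 h and 0.10 ± 0.35 at 8 h. Old mouse 2 gave 1.32 at 0.5 h. Without ligand the ST minus MPP difference of Nfkbiz at 2, 4 and 8 h was 0.69, -1.78 and -1.6 in young mouse 4. In old mouse 4 it was 2.80, 3.73 and 2.15. With ligand the young mice ran from -1.07 to 1.49 over these times, a narrower range. No culture without ligand was sampled at 0.5 h.

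Tnfaip3, the ubiquitin-editing enzyme A20 that shuts down NF-kB signalling, showed how mice disagreed. It rose from 8.15, 13.6 and 5.99 CPM at 0 h to 527, 187 and 416 CPM at 0.5 h in ST, and from 12.1, 12.1 and 24.7 to 81.1, 171 and 255 CPM in MPP. The difference was 3.21 and 2.59 in mice 1 and 3 but -0.02 in mouse 2. edgeR gave 2.00 ± 0.70 (adjusted p = 1.0). The NF-kB subunit genes Nfkb2 and Relb rose at 2 h by 4.19 ± 0.39 and 4.85 ± 0.60 log2 units in ST and by 4.13 ± 0.39 and 4.87 ± 0.60 in MPP (edgeR adjusted p = 2.53e-08 for Nfkb2 and 2.84e-06 for Relb in MPP). The difference at 2 h was 1.62, 0.32 and -1.54 per mouse for Nfkb2 and 0.86, -0.55 and -0.49 for Relb, with both signs among the mice.

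**Figure D2:**
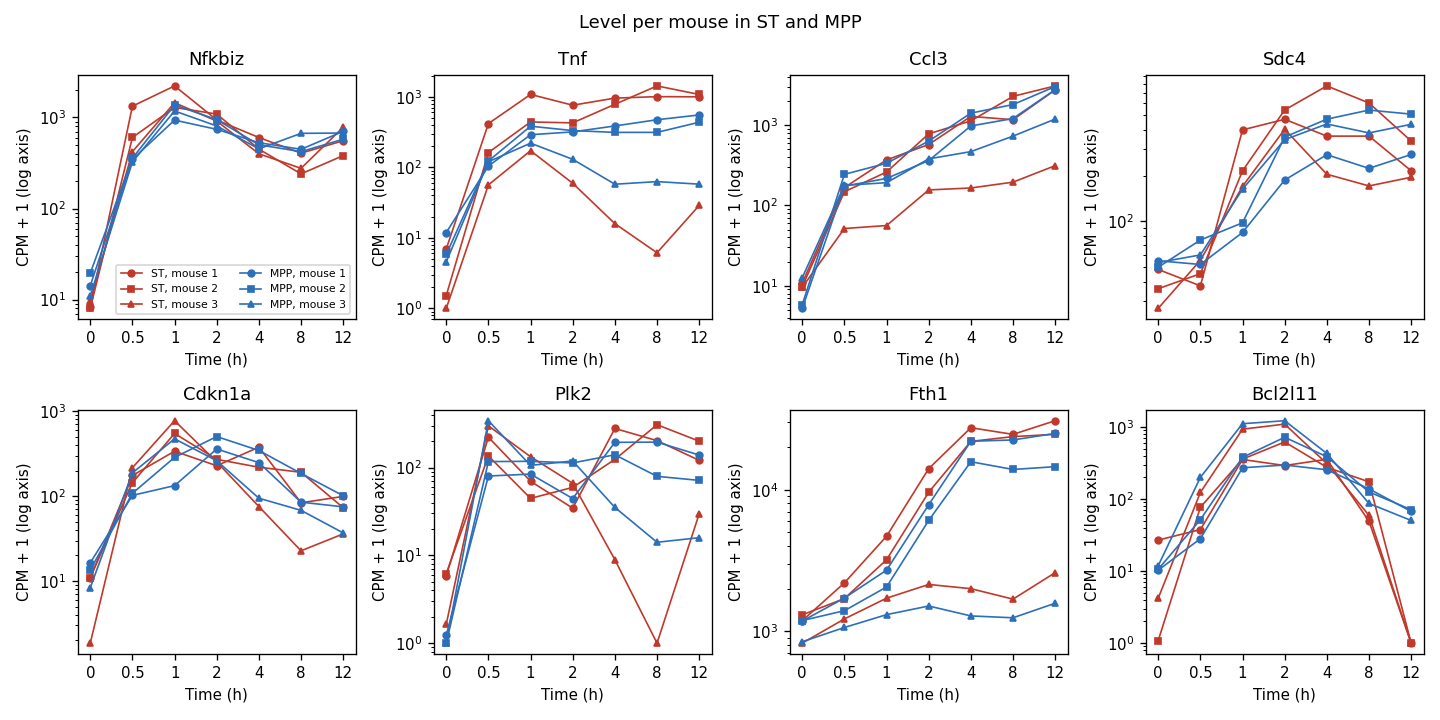
Level (CPM + 1, log axis) of 8 genes at each time in hours, with 1 line per mouse and cell type (ST red, MPP blue). Nfkbiz at 0.5 h reached 420 to 1328 CPM in ST and 324 to 356 CPM in MPP, while Bcl2l11 was at 0 in all 3 ST libraries at 12 h and at 49.6 to 70.5 CPM in MPP. Neither difference of changes passed (edgeR adjusted p = 0.467 and 0.269).

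Among 24 cytokine genes, 2 to 7 were called higher in ST and 2 to 6 in MPP depending on the time, and 0 differed. Beside them, 0.449% to 2.28% of all genes were called higher in ST and 0.365% to 1.83% in MPP. Tnf, the founding cytokine of its family, was nearest the threshold on the ST side for the mean over times. It was at 5.95, 0.519 and 0 CPM in ST at 0 h and at 10.9, 4.81 and 3.56 CPM in MPP. At 1 h it was at 1080, 439 and 171 CPM in ST and 289, 382 and 219 CPM in MPP. From 0.5 to 12 h it was higher in MPP at each time in mouse 3 and higher in ST at each time in mice 1 and 2. The difference of changes at 1 h was 2.67, 2.14 and 1.83 on log2(CPM + 1), and edgeR gave 3.46 ± 0.79 (adjusted p = 1.0). The 0 h level entered every one of these differences and was near 0 in ST of mice 2 and 3. For the mean over times the values were 2.18, 2.90 and 0.72, and edgeR gave 3.18 ± 0.65 (95% interval 1.80 to 4.55, adjusted p = 0.883), while DESeq2 gave 3.31 with an adjusted p of 0.00839. Old mouse 2 gave 1.97.

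Il1b, the interleukin released by the inflammasome, was at 26.2, 4.58 and 0 CPM in ST and 17.8, 6.55 and 0 CPM in MPP at 0 h. At 4 h it was at 1646, 1222 and 287 CPM in ST and 1090, 747 and 182 CPM in MPP. It rose by 7.42 ± 0.95 log2 units in ST (edgeR adjusted p = 6.84e-06) and 6.64 ± 0.91 in MPP (adjusted p = 1.8e-05). The difference was 0.06, 1.14 and 0.65 per mouse. Old mouse 2 gave 4.27, far from the young mice. Mouse 3 had the lowest Tnf and Il1b at 4 h in both cell types, and also the lowest granule gene sum; the part of the latter was not tested. Ebi3, a subunit of the interleukin 27 heterodimer, was called from 2 h on in both cell types. At 8 h it rose in ST (2.59 ± 0.38, edgeR adjusted p = 5.99e-05) and MPP (3.41 ± 0.39, adjusted p = 1.01e-06), with differences of -0.79, 0.10 and -1.57 per mouse.

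Chemokine genes were called higher in part of the list, with 5, 6, 10, 9, 10 and 10 of 17 called in ST and 3, 6, 7, 8, 9 and 9 in MPP. The share of all genes called higher ran from 0.449% to 2.28% in ST and from 0.365% to 1.83% in MPP. For the difference, 0 of 17 passed at any time. Ccl3, which attracts monocytes, was nearest the threshold on the MPP side at 0.5 h. It was at 9.80, 8.73 and 8.55 CPM in ST and 4.23, 4.81 and 11.6 CPM in MPP at 0 h. At 0.5 h it was at 166, 147 and 50.6 CPM in ST and 173, 243 and 177 CPM in MPP. The difference of changes was -1.11, -1.47 and -1.39 (mean -1.32 ± 0.19 SD, n = 3 mice), and edgeR gave -1.41 ± 0.26 (95% interval -1.96 to -0.86, adjusted p = 0.467). DESeq2 gave -1.40 with an adjusted p of 0.028.

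The repeats of the 0 h libraries disagreed for Ccl3. In ST of mouse 1 at 0 h, Ccl3 had 1 count in repeat 1 and 88 counts in repeat 2, which is 0.3 and 17.75 CPM of those repeats. In ST of mouse 2 it had 35 and 66 counts. With repeat 1 alone the Ccl3 difference was -0.05 at 0.5 h and turned positive at 1, 4, 8 and 12 h and for the mean, at 0.23, 0.34, 0.28, 0.18 and 0.28. Old mouse 2 was positive at each of the 6 times, from 0.23 to 1.66. Ccl3 at 12 h was at 2746, 3078 and 312 CPM in ST and 2763, 3022 and 1189 CPM in MPP, so mice 1 and 2 ended at nearly the same level in both cell types.

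Ccl4, the close relative of Ccl3, had differences at 0.5 h of -0.25, -2.37 and -1.63 and an edgeR value of -1.46 ± 0.48 (adjusted p = 1.0). Ccl5, a chemokine of T cells and monocytes, started late. At 2 h it was at 307, 541 and 250 CPM in ST and 88.0, 180 and 184 CPM in MPP. At 12 h it was at 1111, 4115 and 1090 against 1714, 2979 and 1314 CPM. The difference was 1.31, 1.00 and 1.28 at 2 h (edgeR 1.18 ± 0.35, adjusted p = 1.0) and -1.11, -0.12 and 0.57 at 12 h. Old mouse 2 had the opposite sign at 2 h, -1.28. Cxcl16, a membrane-bound chemokine, had 0 counts in all 3 ST libraries at 0 h and 0, 0.385 and 0.223 CPM in MPP. At 0.5 h it was at 35.5, 13 and 5.44 CPM in ST and at 0, 0 and 0.857 CPM in MPP, a difference that passed with DESeq2 (adjusted p = 0.0419). At 4 h it was at 207, 384 and 374 CPM against 64.7, 143 and 197 CPM. ST was higher in each mouse at each time from 0.5 to 8 h, but not in mouse 1 at 12 h (53.9 against 141 CPM). Cxcl2, a neutrophil attractant, was also at 0 in ST at 0 h. It reached 341, 102 and 44.9 CPM in ST and 127, 56.0 and 26.3 CPM in MPP at 0.5 h.

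**Figure D3:**
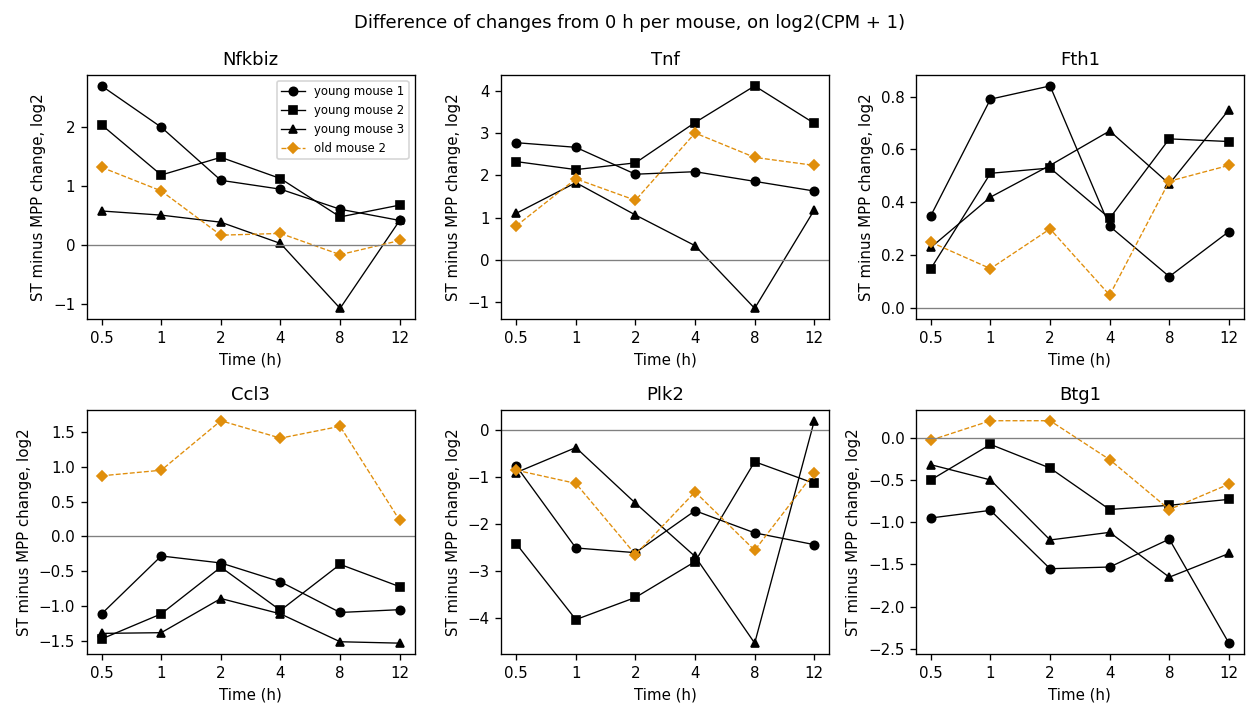
Difference between the ST and the MPP change from 0 h, on log2(CPM + 1), for 6 genes by time in hours; black points are young mice 1, 2 and 3 and orange diamonds old mouse 2, the grey line is 0. Fth1 differed by 0.45, 0.47 and 0.51 over the mean of the times in the 3 young mice, whereas Ccl3 lay below 0 in these mice and above 0 in old mouse 2.

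Of 22 receptor and adaptor genes for the ligands, 1 or 2 were called higher in ST and 1 to 3 in MPP at any time. The shares over all genes were 0.449% to 2.28% in ST and 0.365% to 1.83% in MPP. Cd14, the co-receptor that hands LPS to Tlr4, rose at 2 h from 12.3, 4.06 and 0 to 1541, 729 and 33.9 CPM in ST, and from 4.78, 3.27 and 1.11 to 588, 511 and 57.5 CPM in MPP. Its change was 7.26 ± 0.50 in ST (edgeR adjusted p = 2.53e-11) and 6.77 ± 0.49 in MPP (adjusted p = 8.56e-11). The difference per mouse was 0.18, 0.27 and 0.33, whereas old mouse 2 gave 3.08, far from the young mice. Tlr2, the receptor for Pam3csk4, was not called in either cell type at 1 h (2.31 ± 1.01 in ST and 2.16 ± 0.99 in MPP, edgeR adjusted p of 0.441 and 1.0). Its 0 h repeats in ST of mouse 2 held 5 and 461 counts. The Tlr2 difference at 1 h was 0.12, 0.59 and -1.35 in the young mice and 5.04 in old mouse 2. Tlr4 was also not called at any time.

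Of 19 surface molecules of activated cells, 6 rose in ST and 4 in MPP at 1 h, beside 1.29% and 0.822% of all genes. Icam1, the ligand of leukocyte integrins, reached 613, 826 and 1101 CPM in ST and 495, 804 and 901 CPM in MPP at 2 h. At 12 h it stood at 83.3, 390 and 167 CPM in ST and 322, 473 and 368 CPM in MPP. The difference at 12 h was -1.76, -0.38 and -1.23 (edgeR -1.12 ± 0.36, adjusted p = 0.713). Sdc4, a heparan sulphate proteoglycan, was among the genes nearest the threshold at 1 h. It was at 47.4, 35.2 and 25.9 CPM in ST and 54.2, 49.1 and 52.8 CPM in MPP at 0 h. At 1 h it was at 398, 214 and 169 CPM in ST and 83.7, 97.0 and 162 CPM in MPP. It was called at 1 h in ST (2.84 ± 0.36, edgeR adjusted p = 6.62e-06) and not in MPP (1.07 ± 0.35, adjusted p = 0.3). By 2 h it was called in both, at 3.71 ± 0.38 and 2.41 ± 0.36. The difference at 1 h was 2.43, 1.60 and 1.06 (edgeR 1.72 ± 0.42, 95% interval 0.83 to 2.61, adjusted p = 1.0), and old mouse 2 gave 0.53. At 2, 4, 8 and 12 h old mouse 2 gave -0.83, -0.96, -1.33 and -1.91, against young means of 1.27, 0.57, 0.46 and -0.15.

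Immediate early genes were called most often in the first hour. Of 33 genes, 14 rose in ST and 13 in MPP at 0.5 h, 14 and 15 at 1 h, and 4 and 4 at 12 h. The shares over all genes were 0.449% and 0.365% at 0.5 h, 1.29% and 0.822% at 1 h, and 2.28% and 1.83% at 12 h. Egr1, a zinc finger factor, reached 714, 822 and 1660 CPM in ST and 535, 666 and 2052 CPM in MPP at 0.5 h. Its change was 6.27 ± 1.21 in ST (edgeR adjusted p = 0.00684) and 7.02 ± 1.25 in MPP (adjusted p = 0.00313). It was at 0 in all 3 ST libraries at 8 and 12 h, against 28.7, 10.0 and 0 CPM in MPP at 12 h. Junb, a member of AP-1, rose by 3.73 ± 0.32 in ST and 3.89 ± 0.32 in MPP at 0.5 h (edgeR adjusted p = 3.61e-09 and 2.16e-09). Its difference was -0.25, 0.17 and -0.16 per mouse (edgeR -0.09 ± 0.27, 95% interval -0.65 to 0.48). Nr4a1, an orphan nuclear receptor, rose by 7.90 ± 0.67 and 8.25 ± 0.69, with differences of 0.54, -1.77 and -0.15, against 3.72 in old mouse 2.

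Crem, a cAMP-responsive repressor, came next to the threshold on the ST side at 0.5 h after Nfkbiz and Tnf. It was at 0, 0.0865 and 1.92 CPM in ST and 8.23, 9.63 and 7.35 CPM in MPP at 0 h. At 1 h it was at 186, 273 and 395 CPM in ST and 110, 189 and 255 CPM in MPP. The difference at 0.5 h was 3.81, 4.47 and 1.94 (edgeR adjusted p = 1.0), and old mouse 2 gave 0.62. Plk2, a polo-like kinase induced by stress, leaned the other way. It was at 4.85, 5.19 and 0.641 CPM in ST and 0.235, 0 and 0 CPM in MPP at 0 h. At 0.5 h it was at 221, 135 and 298 CPM in ST and 79.2, 116 and 341 CPM in MPP. The difference was -2.04, -2.44 and -1.65 over the mean of the times, and -1.57 in old mouse 2. These values rest on 0 h levels of a few CPM. No fitted fold is given for Plk2 because its MPP level at 0 h was 0 in mice 2 and 3.

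Cdkn1a, the cyclin-dependent kinase inhibitor p21, was at 9.91, 10.0 and 0.855 CPM in ST and 15.4, 12.5 and 7.35 CPM in MPP at 0 h. At 1 h it was at 337, 546 and 772 CPM in ST and 132, 285 and 472 CPM in MPP. ST was higher than MPP in each mouse at 1 h. The difference was 1.94, 1.22 and 2.88 (edgeR 2.17 ± 0.55, 95% interval 1.02 to 3.32, adjusted p = 1.0), and 2.84 in old mouse 2. Btg1, an antiproliferative gene, was called higher at 12 h in MPP (2.00 ± 0.39, edgeR adjusted p = 0.00217) and not in ST (0.52 ± 0.39, adjusted p = 0.441). It went from 185, 70.8 and 31.8 CPM at 0 h to 88.5, 130 and 107 CPM at 12 h in ST, and from 66.5, 49.9 and 17.6 to 174, 153 and 157 CPM in MPP. The difference at 12 h was -2.43, -0.73 and -1.37 (edgeR -1.54 ± 0.37, 95% interval -2.32 to -0.75, adjusted p = 0.303), beside a median of -0.61 over all genes. Of 30 cell cycle genes, 4 fell in ST and 4 in MPP at 12 h, beside 5.39% and 0.731% of all genes. In either cell type 0 of the 30 rose, beside 2.28% and 1.83% of all genes.

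Bcl2l11 encodes Bim, a protein that promotes apoptosis. It went from 26.0, 0.0865 and 3.21 CPM at 0 h to 292, 622 and 1101 CPM at 2 h in ST and from 9.33, 9.63 and 10.9 to 297, 723 and 1228 CPM in MPP. At 12 h it was at 0 in all 3 ST libraries and at 66.5, 70.5 and 49.6 CPM in MPP. The difference at 12 h was -7.46, -2.87 and -4.16 and did not pass (edgeR adjusted p = 0.269), and old mouse 2 gave -0.99. The rise was shared at 2 h, with changes of 6.0 ± 1.05 in ST (edgeR adjusted p = 0.00071) and 6.03 ± 1.02 in MPP (adjusted p = 0.000468).

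Genes of the oxidative stress response and of ferritin were called higher as follows: 0, 2, 4, 9, 8 and 12 of 22 in ST and 0, 1, 2, 6, 7 and 6 in MPP. The share over all genes ran from 0.449% to 2.28% in ST and from 0.365% to 1.83% in MPP. Fth1, the heavy chain of ferritin that stores iron, was the gene nearest the threshold on the ST side at 2 h. At 0 h it was at 1187, 1305 and 823 CPM in ST and 1179, 1189 and 842 CPM in MPP. At 4 h it was at 27421, 21951 and 1998 CPM in ST and 22007, 15765 and 1282 CPM in MPP. Mouse 3 rose far less than mice 1 and 2 in both cell types. The difference of changes over the mean of the times was 0.45, 0.47 and 0.51 (mean 0.48 ± 0.03 SD, n = 3 mice), and edgeR gave 0.48 ± 0.11 (95% interval 0.24 to 0.71, adjusted p = 1.0). Old mouse 2 gave 0.30. Without ligand it was 0.33, -0.01 and -0.18 at 2, 4 and 8 h in young mouse 4 and -0.41, -0.11 and -0.45 in old mouse 4. Ftl1, the light chain, differed by -0.19, 0.02 and 0.03 at 4 h (edgeR -0.05 ± 0.09, 95% interval -0.25 to 0.15), and 0.01 with DESeq2's size factors.

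Sqstm1, the autophagy receptor p62, rose by 4.51 ± 0.54 log2 units in ST and 3.97 ± 0.53 in MPP at 2 h (edgeR adjusted p = 2.15e-06 and 1.25e-05). Its difference was 0.43, 0.49 and 0.66 (edgeR 0.52 ± 0.15, adjusted p = 1.0), and 0.64 in old mouse 2. Slc7a11, the cystine transporter, was called in ST at 2 h (4.00 ± 0.86, edgeR adjusted p = 0.0063) and not in MPP (2.33 ± 0.81, adjusted p = 0.243), and its difference was 0.83, 1.57 and 1.86 (edgeR 1.44 ± 0.37, adjusted p = 1.0). Fth1 and Slc7a11 were named at 2 h by a rule that asked for 1 sign in all 3 mice. Their shared sign therefore followed from the choice. Sqstm1, named from its list, was also positive in each young mouse at 2 h.

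Sterol and stress genes were called in both cell types, with 0 differences. Of 19 cholesterol synthesis genes, 8 rose in ST and 8 in MPP at 4 h, beside 1.55% and 1.76% of all genes. Sc4mol, a sterol methyl oxidase, was among the genes nearest the threshold at 1 h, with a difference of -2.37, -2.44 and -0.23. It rose by 2.25 ± 0.41 in ST and 3.21 ± 0.43 in MPP at 4 h (edgeR adjusted p = 0.000957 and 9.74e-06). Of 17 heat shock genes, 6 and 6 rose at 1 h, beside 1.29% and 0.822% of all genes. Of 18 chaperones of the endoplasmic reticulum, 8 and 8 rose at 8 h, beside 1.6% and 1.73% of all genes. Hspa5, the chaperone BiP, was at 342, 545 and 363 CPM in ST and 589, 643 and 574 CPM in MPP at 0 h, and at 1728, 1436 and 2400 against 1309, 1842 and 2185 CPM at 1 h. Herpud1, a protein of the degradation machinery of that compartment, was at 187, 331 and 332 CPM in ST and 381, 593 and 628 CPM in MPP at 8 h. Its difference at 8 h was -1.40, -0.69 and -0.76 (edgeR -0.95 ± 0.27, 95% interval -1.51 to -0.39, adjusted p = 1.0), and -1.19 in old mouse 2.

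Slc38a2, an amino acid transporter among the genes nearest the threshold at 8 h, was at 87.6, 127 and 203 CPM in ST and 299, 362 and 302 CPM in MPP at 8 h. It was called higher at 8 h in MPP (1.82 ± 0.32, edgeR adjusted p = 0.000687) and not in ST (0.25 ± 0.32, adjusted p = 0.76). The difference was -2.38, -1.74 and -0.35 (edgeR -1.50 ± 0.41, adjusted p = 1.0), and -0.30 in old mouse 2. Slc2a3, a glucose transporter, was not called in either cell type at 4 h, and its difference was -2.73, -1.53 and -2.58 (edgeR -2.29 ± 0.62, adjusted p = 1.0), with -2.45 in old mouse 2 and -1.32 and -0.43 without ligand in young and old mouse 4.

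Ptma, which encodes prothymosin alpha, fell in both cell types at 8 h, by 0.69 ± 0.18 log2 units in ST (edgeR adjusted p = 0.0349) and 1.33 ± 0.19 in MPP (adjusted p = 2.01e-05). Its difference was 0.55, 0.85 and 0.57, and 0.65 in old mouse 2. Without ligand it was 0.55 and 0.61 in young and old mouse 4, of the same size as with ligand. Ptges3, the Hsp90 co-chaperone p23, was called higher at 8 h in ST (1.06 ± 0.26, edgeR adjusted p = 0.0168) and not in MPP (0.19 ± 0.25, adjusted p = 0.942), with a difference of 1.58, 0.42 and 0.61. Cct8, a subunit of the cytosolic chaperonin, differed by 1.85, 0.62 and 0.34 at 4 h. Lyz2, the lysozyme of myeloid cells, differed by -1.17, -0.62 and -0.55 at 8 h, at 6244, 3782 and 163 CPM in ST and 10420, 3516 and 223 CPM in MPP. Each of these differences had an edgeR adjusted p of 1.0.

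Others near the threshold rested on libraries without a count. Bst1, an ADP-ribosyl cyclase, and Chtf18, a factor of sister chromatid cohesion, had 0 counts in all 3 ST libraries at 2 h, against 78.8, 19.6 and 1.06 CPM and 24.4, 41.4 and 23.9 CPM in MPP. With DESeq2 both passed at 2 h (adjusted p = 0.00789 for Bst1 and 0.0244 for Chtf18), and Bst1 also did with mouse as an additive block in edgeR (adjusted p = 0.0314). Traf3, a brake on the noncanonical NF-kB pathway, was at 0, 0 and 15.5 CPM in ST and 18.1, 16.2 and 19.3 CPM in MPP at 0.5 h, and passed there with DESeq2 (adjusted p = 0.0227). H2-Q6, a class I histocompatibility gene with near-identical relatives among which reads may be split, was at 0 in all 3 MPP libraries at 8 h. Clec4a3, a lectin receptor, was at 5.75, 38.3 and 3.31 CPM in ST and 0, 0.714 and 1.51 CPM in MPP at 4 h. Tti1, a partner of PIK-related kinases, was at 0 in ST at 12 h and at 109, 37.6 and 47.6 CPM in MPP.

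**Figure D4:**
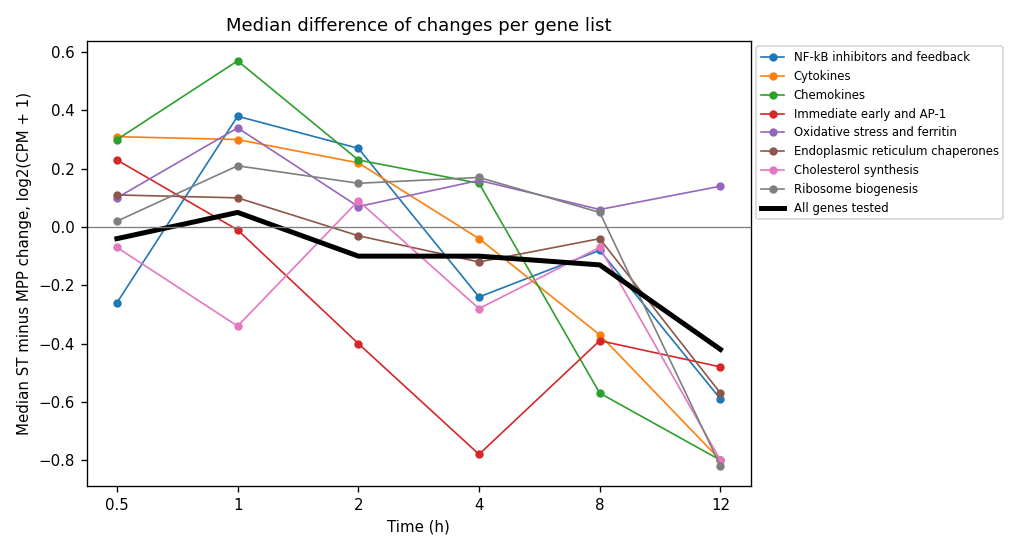
Median over the genes of each of 8 lists of the ST minus MPP difference of changes, averaged over 3 mice on log2(CPM + 1), by time in hours; the black line is the median over all 13139 genes tested. The median over all genes moved from -0.04 at 0.5 h to -0.42 at 12 h, and 6 of the 8 lists ended below -0.5, while the oxidative stress and ferritin list ended at 0.14.

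At 12 h the differences leaned toward lower levels in ST across the table. The median edgeR difference over all genes was -0.61 at 12 h and lay between -0.21 and 0.07 at the earlier times. The genes nearest the threshold on that side were Grwd1, a histone-binding protein of ribosome assembly, Faf1, a Fas-associated factor, and Suclg2, a subunit of succinyl-CoA ligase. Grwd1 was at 29.8, 53.5 and 59.0 CPM in ST at 0 h and at 0 in all 3 ST libraries at 12 h, against 27.8, 12.4 and 43.1 CPM in MPP at 12 h. Its difference was -3.69, -3.65 and -4.95 on log2(CPM + 1), with an edgeR adjusted p of 0.104. Faf1 and Suclg2 were likewise at 0 in ST at 12 h, with differences of -4.39, -4.69 and -4.65 for Faf1 and -6.34, -4.97 and -5.74 for Suclg2 (edgeR adjusted p = 0.118 for each). Old mouse 2 gave -3.18, -0.24 and 1.65 for Grwd1, Faf1 and Suclg2.

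Values of 0 were frequent among them. Of the 720 genes with a larger fall in ST at an unadjusted p under 0.05, 269 (37.4%) had 0 counts in all 3 ST libraries at 12 h, against 2338 of all 13139 tested (17.8%). Of 9518 genes seen in all ST libraries at 0 h, 631 (6.63%) were at 0 in all 3 at 12 h. In MPP these were 278 of 11741 (2.37%). The part of detection in the 12 h differences was not tested. Without mouse as part of the model 27 genes were called at 12 h, and with mouse as an additive block 26, of which 23 were among the 27 and 23 were at 0 in all 3 ST libraries. Without libraries under 8000 detected genes (ST of mouse 1 at 4, 8 and 12 h) 41 were called, 39 of them with the larger fall in ST, and 8 of these were at 0 in all 3. Without the shallowest library (ST of mouse 3 at 12 h) 13 were called.

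**Figure D5:**
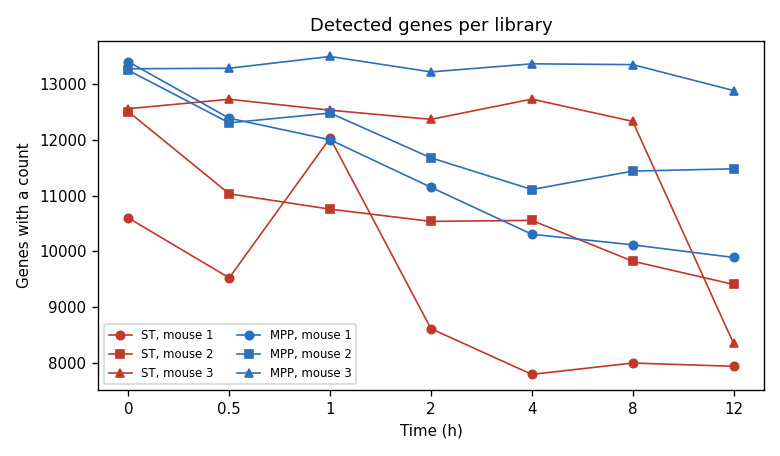
Number of genes with at least 1 count in each library, by time in hours, in ST (red) and MPP (blue) with 1 line per mouse. ST medians fell from 12510 at 0 h to 8346 at 12 h and MPP medians from 13281 to 11483.

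Markers of other cells were followed beside these values. The sum of 19 monocyte, macrophage and dendritic genes went from 1846, 1316 and 87.2 CPM at 0 h to 5109, 3970 and 373 CPM at 12 h in ST, and from 1878, 1020 and 282 to 2862, 2114 and 1120 CPM in MPP. At 12 h, 7 of the 19 were at 0 in all ST libraries (C1qa, C1qc, Mrc1, Ms4a7, Ccr2, Fcgr1 and Itgax). C1qa, C1qc and Mrc1 were also at 0 in all MPP libraries at 12 h. The T and NK cell sum was at most 18.8 CPM in ST at 12 h, with Cd3e, Cd3d and Cd3g at 0. Late neutrophil granule genes were called higher at 12 h in 6 of 13 cases in ST and 1 of 13 in MPP, with 0 called for a difference, beside 2.28% and 1.83% of all genes called higher. Their sum at 12 h was 71289, 67606 and 2538 CPM in ST and 108891, 46310 and 628 CPM in MPP, above the 0 h sums given earlier in each mouse. Their part in the responses was not tested.

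Among 31 stem cell identity genes, 5 fell in ST and 2 in MPP at 12 h, beside 5.39% and 0.731% of all genes, and 0 differed. Kit, the receptor for stem cell factor, fell at 1 h in ST (-1.02 ± 0.21, edgeR adjusted p = 0.00517) and changed by -0.48 ± 0.21 in MPP (adjusted p = 0.95), with a difference of -0.57, -0.94 and -0.13. Cd34, a sialomucin of progenitors, fell at 12 h in MPP (-1.76 ± 0.34, edgeR adjusted p = 0.00165) and changed by -0.98 ± 0.33 in ST (adjusted p = 0.0629). Its difference was 1.75, 0.39 and 0.33 (edgeR 0.82 ± 0.38, adjusted p = 0.843). Myb, a factor that keeps progenitors dividing, rose at 12 h in ST from 47.6, 93.1 and 93.4 to 103, 178 and 273 CPM (1.24 ± 0.37, edgeR adjusted p = 0.0362) and went from 94.0, 124 and 106 to 46.5, 84.5 and 83.0 CPM in MPP (adjusted p = 0.61). The difference was 2.10, 1.47 and 1.89 (edgeR 1.84 ± 0.53, 95% interval 0.72 to 2.96, adjusted p = 0.622), and -0.03 in old mouse 2. Myb was among the genes nearest the threshold at 12 h, so its shared sign in the young mice followed from the choice.

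Of 3 transcription factors followed in each library, Stat3, a mediator of interleukin-6 signalling, rose at 2 h in ST (1.36 ± 0.32, edgeR adjusted p = 0.0123) and MPP (1.49 ± 0.32, adjusted p = 0.00649). Its difference was -0.15, -0.08 and -0.12 (edgeR -0.12 ± 0.46, 95% interval -1.09 to 0.85). Ikzf1, the lymphoid factor Ikaros, was not called at 2 h in either, with differences of -1.22, -0.29 and -0.76. Klf5, a zinc finger factor, was at 29.1 CPM or less in every ST and MPP library, and had 0 counts in all 3 ST libraries at 4 and 12 h.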

How the data were processed

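RNA of sorted ST and MPP was read with SMART-seq2, per the labels' protocols. The deposited values are expected counts per gene symbol made with RSEM (version not given in the sources used here) against mm9, per the submitters' processing notes, and 89.5% of them were whole numbers. Technical repeats were summed (48 libraries to 42), 6 of 127 libraries under 1000 counts were dropped, sums were rounded, and edgeR's filterByExpr kept 13139 genes. The difference of changes was tested with edgeR 4.0.16 in R 4.3.3 (TMM scaling, quasi-likelihood F test, terms for cell type by time, mouse by cell type and mouse by time, 12 residual degrees of freedom), and own changes with mouse by cell type. DESeq2 1.42.0 and limma 3.58.1 were alternatives, beside other scaling, filters, libraries, pairings and left-out mice. Levels are TMM-scaled CPM, and per-mouse differences use log2(CPM + 1).

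The mouse number pairs the samples, since the labels name a numbered mouse. The count headers do not, so the pairing also rests on the matching of mice to dates described above. Deviations of ST and MPP correlated at 0.30, 0.13 and 0.56 for the same mouse and at -0.41 to 0.10 between mice, over 8752 genes. These values cannot show the pairing, because deviations among 3 mice depend on each other and each mouse has its own date. Mouse 2 with itself, at 0.13, lay near mice 1 and 2 crossed, at 0.08 and 0.10. With 3 mice, a sign test cannot go below 0.25. P-values rest on the spread left among these 3 mice only, after the terms above. That spread is pooled over the times and shared in part across genes, so it is not the spread between mice at 1 time. For Nfkbiz the SE was 0.36 at 0.5 and at 12 h, while the SD over mice was 1.08 and 0.15. With no gene past the threshold, those named were the 3 of lowest unadjusted p per direction and comparison that averaged 10 CPM or more and kept 1 sign in all 3 mice, up to 4 of lowest p per list, and a fixed panel. The members and lists were chosen with earlier results of these data known. Some genes of the panel and the marker lists are not reported here.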

Additional observations from a re-analysis of the deposited data

How the results depend on the processing

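Of 64 differences reported for single genes, 43 kept their sign and their side of the threshold under every alternative that gave a value, and of 100 changes within a cell type 40 did. No difference passed in the fully paired edgeR fit, but some did under other tools or settings. DESeq2 called 5, 1, 4, 8, 2 and 315 genes at 0.5, 1, 2, 4, 8 and 12 h, 2 for the mean and 73 for any time, and limma voom called 2, 3 and 30 at 1, 2 and 12 h and 17 for any time. With mouse as an additive replicate block 1 gene was called at 2 h and 26 at 12 h, and with no replicate block 27 at 12 h. Technical replicate 1 alone gave 1 gene for any time. Leaving out a mouse gave 0 to 44 genes at 12 h (44 without mouse 1, 8 without mouse 2, 0 without mouse 3) and 0 to 1 for any time. Chosen after seeing the data, leaving out the ST library of mouse 3 at 12 h gave 13 at 12 h, and libraries of at least 8000 detected genes gave 41 at 12 h and 2 for any time. The cause of these shifts was not tested.

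Counts of genes changed from 0 h moved most, and are given in order of time and then for 1 or more times. In ST, DESeq2 gave 241, 511, 1429, 1332, 1543, 2571 and 4259, and limma voom 110, 424, 1128, 1228, 1263, 2128 and 3715. With LT libraries added they were 36, 80, 109, 101, 138, 336 and 432, and with no replicate block 37, 88, 105, 105, 102, 368 and 487. Only the compared libraries gave 97, 52 and 56 at 4, 8 and 12 h and 442 in all. Technical replicate 1 alone gave 658 at 12 h, and libraries of at least 8000 detected genes 532 at 2 h. Leaving out a mouse gave 25 to 52, 55 to 174, 59 to 352, 46 to 265, 36 to 366, 227 to 1239 and 268 to 1586, the lowest without mouse 2 each time; without mouse 3 ST had 375 at 12 h and 598 in all.

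In MPP, DESeq2 gave 84, 196, 401, 630, 655, 675 and 1246, and limma voom 364, 707, 638 and 638 from 2 h and 1274 in all. With LT libraries added they were 26, 60, 92, 113, 132, 168 and 247, and with no replicate block 29, 58, 91, 105, 89, 67 and 172. Only the compared libraries gave 27 at 0.5 h, then 145, 133, 75 and 58 from 2 h and 293 in all. Libraries of at least 8000 detected genes gave 351 and 447 at 2 and 4 h and 836 in all. Leaving out a mouse gave 14 to 42, 25 to 114, 30 to 243, 38 to 281, 33 to 298, 53 to 311 and 75 to 551, again lowest without mouse 2, and 362 in all without mouse 3.

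The signs of 15 genes turned in 1 or more of these values. With technical replicate 1 alone the Ccl3 difference was 0.23, 0.34, 0.28 and 0.18 at 1, 4, 8 and 12 h and 0.28 for the mean. The same setting gave Nfkb2 -0.16 at 2 h, Ccl5 0.99 at 12 h, Tlr2 2.48 at 1 h, Nr4a1 0.70 at 0.5 h, Ftl1 0.02 at 4 h and Stat3 0.31 at 2 h. The Tlr2 difference was 0.28 with no replicate block, 0.22 with the additive block and 0.18 with voom. Ftl1 was 0.01 with DESeq2 and with its size factors. Libraries of at least 8000 detected genes gave Nfkbiz -0.02 at 8 h and Ccl5 0.03 at 12 h. Leaving out a mouse, these differences ran from -0.24 to 0.61 for Nfkbiz at 8 h (-0.24 without mouse 1, -0.13 without mouse 2), -0.60 to 0.11 for Relb at 2 h (0.11 without mouse 2, 0.04 without mouse 3), -0.66 to 0.96 for Nfkb2 (-0.66 without mouse 1), -0.66 to 0.15 for Ccl5 (0.15 without mouse 1), -0.65 to 0.30 for Tlr2, -0.86 to 0.02 for Egr1 at 0.5 h (both high ends without mouse 3) and -1.08 to 0.17 for Nr4a1 (0.17 without mouse 2). Changes ran from -2.60 (without mouse 3) to 1.89 for Cxcl16 in MPP at 0.5 h, -0.04 (without mouse 3) to 1.30 for Btg1 in ST at 12 h, -0.20 (without mouse 3) to 0.79 for Slc38a2 in ST at 8 h, and -0.12 (without mouse 2) to 0.37 for Ptges3 in MPP at 8 h. The Btg1 change in ST was -0.09 with voom. The Ikzf1 change in ST at 2 h was -0.08 with only the compared libraries, -0.12 with voom, -0.34 without mouse 2, -0.06 without mouse 3 and 0.68 without mouse 1. With DESeq2's size factors the median 12 h difference over all genes moved by 0.14. Depth was 990801 to 11636725 counts per library.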
